A study of Mus musculus with 3 samples.

Results

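KLF and C/EBP transcription factors were followed through liver macrophages and 2 other cell classes sorted with them, in mice on chow or on an ethanol diet. The set was a fixed list of 8 gene symbols: Klf2, Klf4, Klf6, Klf9, Klf13, Cebpa, Cebpb and Cebpd. Of these, 7 were found among the 28692 genes of the count matrices, and Cebpd was not analysed here. The members were not picked by a measured threshold, but they were chosen with earlier results of these data known.

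Single-cell RNA came from 3 male mice aged 8 weeks, 1 mouse and 1 library per group. One mouse ate chow throughout, and the others had ethanol at 5% in a liquid diet of the Lieber-DeCarli type for 3 days or for 10 days. A liquid diet free of ethanol was not among the groups. Ethanol, the form of the diet and the mouse, sort and library therefore changed together and cannot be told apart. After perfusion of the liver with collagenase, non-parenchymal cells were sorted as live, F4/80-high and CD11b-intermediate, the surface pattern of Kupffer cells, and captured with 10x Chromium 3' v2 chemistry.

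KLF proteins are zinc-finger factors that bind GC-rich and CACCC elements. In endothelium, laminar flow induces Klf2 and Klf4 through the kinase ERK5 and MEF2 factors, and Klf2 also keeps naive lymphocytes quiescent. C/EBP proteins are leucine-zipper factors: Cebpa sets up the myeloid and hepatocyte programmes, whereas Cebpb is induced by inflammatory, cyclic AMP and acute-phase signals in macrophages. Kupffer cells, the macrophages that live in the sinusoids of the liver, lie against this endothelium.

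The RefSeq promoters (GRCm38.p6) of 4 members are shown because Klf2, Klf4 and Cebpb were the 3 members past the fold limit in both ethanol libraries and Cebpa was not. Each run covers positions -250 to -41 from the RefSeq start, read 5′ to 3′ on the strand of the gene. They lie at chr8:72318812-72319021 (plus strand) for Klf2, chr4:55532516-55532725 (minus strand) for Klf4, chr2:167688665-167688874 (plus strand) for Cebpb and chr7:35119043-35119252 (plus strand) for Cebpa. Capitals mark a loose MEF2 pattern (CTANNNNTAG, in which N is any base) and the CRE core TGACG, on either strand. The CRE core is the short form of the cyclic AMP response element.
Klf2: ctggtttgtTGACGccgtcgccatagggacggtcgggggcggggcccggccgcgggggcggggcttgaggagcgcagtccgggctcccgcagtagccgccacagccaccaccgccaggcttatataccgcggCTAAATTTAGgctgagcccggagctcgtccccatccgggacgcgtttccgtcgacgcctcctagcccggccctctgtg
Klf4: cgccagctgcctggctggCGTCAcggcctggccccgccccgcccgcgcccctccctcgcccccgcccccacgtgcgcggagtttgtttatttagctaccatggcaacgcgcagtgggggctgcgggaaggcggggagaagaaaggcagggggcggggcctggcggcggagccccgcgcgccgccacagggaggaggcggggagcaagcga
Cebpb: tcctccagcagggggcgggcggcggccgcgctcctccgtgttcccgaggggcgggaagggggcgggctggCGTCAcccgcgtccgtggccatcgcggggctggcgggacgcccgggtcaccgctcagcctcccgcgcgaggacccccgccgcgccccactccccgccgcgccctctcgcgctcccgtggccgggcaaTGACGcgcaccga
Cebpa: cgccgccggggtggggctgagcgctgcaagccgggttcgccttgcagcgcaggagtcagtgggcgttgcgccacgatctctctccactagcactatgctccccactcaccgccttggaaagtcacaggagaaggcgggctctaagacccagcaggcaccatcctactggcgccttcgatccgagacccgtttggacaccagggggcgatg

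Among 32519 promoter windows of 210 bases, 2.74% held the MEF2 pattern, and of the 7 member promoters Klf2 alone did, at -118 to -109. The CRE core was present in 14.0% of all windows and in 5 of 7 members: Klf2, Klf4, Klf9, Klf13 and Cebpb. Cebpb had it at -180 to -176 and again at -53 to -49. Klf9 and Klf13, not past the fold limit over chow, thus held the CRE core, and Klf6, past that limit at 3 days, did not. The MEF2 and CRE core patterns were added after the sequences were seen. Of the listed motifs, on both strands, the full CRE TGACGTCA (1.01% of all windows), the glucocorticoid receptor core ACANNNTGT (4.96%) and the C/EBP palindrome TTGCGCAA (0.138%) had no match in the 7 member windows. The AP-1 motif TGANTCA (5.82%) matched Klf9, and CACCC (46.3%) matched Klf9, Cebpa and Cebpb. The member windows held 61.9% to 81.0% G and C against a median of 51.9% for all windows, and these matches are letter patterns only.

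In GENCODE vM21 (GRCm38) Klf2 is a gene of 3 exons at chromosome 8:72319033-72321656 on the plus strand, and Cebpb is a single-exon gene at chromosome 2:167688915-167690418 on the plus strand. Klf4 lies at chromosome 4:55527143-55532466 on the minus strand, Klf6 at chromosome 13:5861482-5870394 on the plus strand and Klf9 at chromosome 19:23141226-23168134 on the plus strand. Klf13 lies at chromosome 7:63886351-63938915 on the minus strand and Cebpa at chromosome 7:35119293-35121928 on the plus strand.

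Barcodes with at least 1000 UMIs (unique molecular identifiers, 1 per captured RNA molecule), at least 300 genes and at most 10% mitochondrial UMIs numbered 2767 on chow, 4061 at 3 days and 3014 at 10 days. The libraries held 21650747, 21471782 and 16538895 UMIs, and the kept cells had median depths of 4552, 3051 and 2982 UMIs. Clusters were made without any KLF or C/EBP gene. Kupffer-like clusters held 2395, 3599 and 2622 cells, endothelial-like 43, 109 and 74, and lymphoid-like 137, 99 and 165. The Kupffer marker Clec4f (a lectin of these cells) was at 4170, 4100 and 4140 CPM in the Kupffer-like class, where CPM are a class's UMIs scaled to a fixed total in each library. Kdr, a receptor of endothelium, was at 1670, 1540 and 1580 CPM in endothelial-like cells against 5.3 to 8.47 in Kupffer-like cells. Cd3d, a chain of the T cell receptor complex, was at 812 to 945 CPM in lymphoid-like cells. Endothelial and lymphoid cells were bycatch of a macrophage sort, so their numbers do not measure the liver. The libraries shared 20 (chow and 3 days), 13 (chow and 10 days) and 20 (3 and 10 days) barcodes, against 15.2, 11.3 and 16.6 if drawn at random.

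With 1 library per group there was no test, and every bracketed range here is a 95% interval for counting error alone, exact Poisson for levels, conditional binomial for ratios and Clopper-Pearson for shares. A gene was counted as higher or lower when its ratio passed 1.5 and that interval excluded 1. Both ethanol libraries are compared with the same chow library.

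In Kupffer-like cells 4 of the 7 members were higher at 3 days than on chow (Klf2, Klf4, Klf6 and Cebpb) and 0 were lower, against 3.37% and 1.28% of the 7508 genes of at least 10 CPM. At 10 days 3 were higher than on chow (Klf2, Klf4 and Cebpb) and 0 lower, against 4.02% and 2.41%. From 3 to 10 days 3 were higher (Klf4, Klf9 and Cebpb) and 0 lower, against 2.4% and 1.96%. All 7 members passed the 10 CPM filter, which was set on the mean of the 3 libraries. The median log2 ratio of the members was 0.63 at 3 days and 0.37 at 10 days over chow, beside 0.04 and 0.08 for all measured genes, and 0.46 beside 0.02 from 3 to 10 days. Scaling by the median of ratios turned the counts over all genes from 253 higher and 96 lower to 200 and 137 at 3 days, from 302 and 181 to 187 and 343 at 10 days, and from 180 and 147 to 143 and 194 between the ethanol libraries. Under it the members past the limit stayed 4 and 3 over chow, and became 2 between the ethanol libraries, where Klf9 dropped out.

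**Figure D1:**
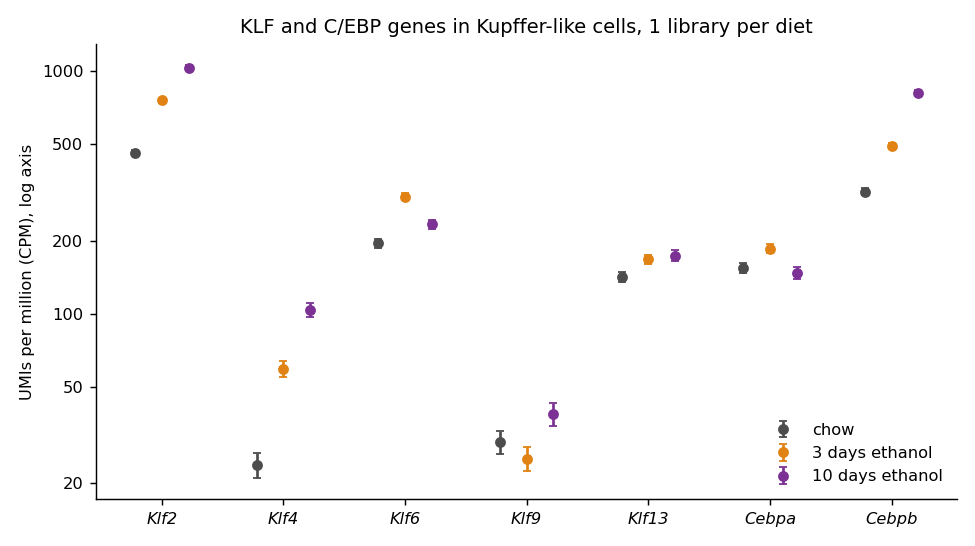
Levels of the 7 genes in Kupffer-like cells (CPM, log axis), 1 point per library with its 95% Poisson interval. Klf2, Klf4 and Cebpb step up from chow to 3 days to 10 days, whereas Klf6 and Cebpa are highest at 3 days.

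Klf2, which restrains inflammatory gene expression in macrophages and endothelium, was at 457 CPM (445 to 470) on chow, 755 (739 to 770) at 3 days and 1030 (1010 to 1060) at 10 days. The 3 libraries stood apart in counting error, in that order. The ratio to chow was 1.65 (1.59 to 1.71) at 3 days and 2.26 (2.19 to 2.34) at 10 days, and from 3 to 10 days it was 1.37 (1.33 to 1.41). When every cell was thinned to 1000 UMIs, which kept all cells, 36.3% (34.4 to 38.2) of chow cells, 51.0% (49.4 to 52.7) at 3 days and 60.9% (59.0 to 62.8) at 10 days held a Klf2 UMI. These shares count cells with a UMI, to which free RNA adds: barcodes of 1 to 100 UMIs held Klf2 at 462, 671 and 895 CPM, close to the levels in Kupffer-like cells.

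Klf4, a factor of monocyte differentiation and alternative macrophage activation, was at 23.7 CPM (21.0 to 26.7) on chow, 59.1 (54.8 to 63.6) at 3 days and 104 (97.3 to 111) at 10 days. These came from 273, 702 and 897 UMIs. Its ratios to chow of 2.49 (2.16 to 2.87) and 4.38 (3.82 to 5.04) were the largest among the 7 members, and from 3 to 10 days it was 1.76 (1.59 to 1.95). At 3 days 99.9% of measured genes had a smaller log2 ratio than Klf4. It was nevertheless sparse: in thinned cells 2.76% (2.14 to 3.49), 5.64% (4.91 to 6.44) and 9.57% (8.47 to 10.8) held a UMI.

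Klf6, which is known to promote inflammatory macrophage genes, took another course. It was at 195 CPM (187 to 203) on chow, 303 (293 to 313) at 3 days and 234 (224 to 244) at 10 days. The 3-day library was the highest of the 3, at 1.56 (1.48 to 1.64) times chow, and the 10-day library lay between, at 1.2 (1.13 to 1.28) times chow and 0.772 (0.731 to 0.816) times 3 days.

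Klf9, a gene that glucocorticoid and thyroid hormone receptors induce in many tissues, was at 29.5 CPM (26.4 to 32.8) on chow, 25.2 (22.4 to 28.2) at 3 days and 38.5 (34.5 to 42.9) at 10 days. The chow and 3-day intervals overlapped and the 10-day library was above both. Its ratio was 0.854 (0.728 to 1.0) at 3 days and 1.31 (1.12 to 1.52) at 10 days over chow, and 1.53 (1.30 to 1.80) from 3 to 10 days. Klf13, known from T cells as an activator of the chemokine gene Ccl5, was at 141 CPM (135 to 148), 168 (160 to 175) and 173 (164 to 182). Its ratios to chow, 1.18 (1.11 to 1.27) and 1.22 (1.14 to 1.31), stayed under the fold limit and the ethanol libraries overlapped.

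Cebpa was at 154 CPM (147 to 161) on chow, 185 (178 to 193) at 3 days and 147 (139 to 155) at 10 days. The 3-day library was 1.2 (1.13 to 1.28) times chow, and chow and 10 days overlapped at a ratio of 0.953 (0.886 to 1.03). Cebpb, in contrast, was at 318 CPM (308 to 329) on chow, 491 (479 to 504) at 3 days and 814 (795 to 833) at 10 days, with no overlap between libraries. The ratio to chow was 1.55 (1.48 to 1.61) and 2.56 (2.46 to 2.66), and from 3 to 10 days 1.66 (1.60 to 1.71). In thinned cells 31.1% (29.3 to 33.0), 40.9% (39.3 to 42.5) and 56.4% (54.4 to 58.3) held a Cebpb UMI. The corresponding shares for Cebpa were 13.2%, 16.2% and 12.5%, so the 2 C/EBP genes diverged at 10 days. In lymphoid-like cells, taken as a class that should hold little of either gene, thinned shares were 3.65%, 8.08% and 3.64% for Cebpb and 1.46%, 1.01% and 0% for Cebpa, at median depths of 3538, 2605 and 2418 UMIs against 4584, 3037 and 3041 in Kupffer-like cells. A count of 0 among the 165 thinned lymphoid-like cells at 10 days allows a share of up to 1.82% (3 cells of the total), which limits cells with a UMI at that depth and not cells that express Cebpa. Without thinning, at unequal depths, the Kupffer-like shares were 79.3%, 82.4% and 89.7% for Klf2, 9.39%, 14.2% and 23.5% for Klf4, 73.4%, 74.6% and 87.5% for Cebpb and 46.7%, 42.0% and 34.4% for Cebpa. The unthinned Cebpa shares thus ran in another order than its CPM, and no order is read from them.

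Chow cells were deeper than ethanol cells, and the level of some members varied with depth. Among chow Kupffer-like cells Cebpb was at 841 CPM in the 203 cells of 1000 to under 2000 UMIs, 508 in those of 2000 to under 4000, 274 in those of 4000 to under 8000 and 173 in the 219 cells of 8000 or more. Klf2 likewise ran from 821 to 326 CPM across these bins, and Klf6 from 341 to 161. Klf4 showed no such slope, at 23.2, 27.3, 24.3 and 17.8 CPM, and Clec4f ran the other way, at 3280, 4000, 4210 and 4370 CPM.

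Within bins of like depth Klf4 was 2.13 to 5.26 times chow at 3 days and 3.87 to 4.61 times chow at 10 days. Klf2 was 1.12 to 1.44 and 1.84 to 2.05 times chow, and Cebpb 1.11 to 1.27 and 1.56 to 2.59 times chow. Weighting the 4 bins equally, an alternative added after the data were seen, gave ratios at 3 days of 2.93 for Klf4, 1.37 for Klf2, 1.42 for Klf6 and 1.15 for Cebpb, so that only Klf4 passed the limit there. At 10 days the ratios were 4.27 for Klf4, 1.93 for Klf2 and 1.83 for Cebpb, the 3 members past the limit as before. Klf6 at 10 days came to 1.02 and Cebpa to 1.05 times chow. Of the 3 members past the limit between 3 and 10 days Cebpb alone stayed, at 1.59, with Klf4 at 1.45 and Klf9 at 1.27. The deepest bin held 20 cells at 3 days and 22 at 10 days.

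**Figure D2:**
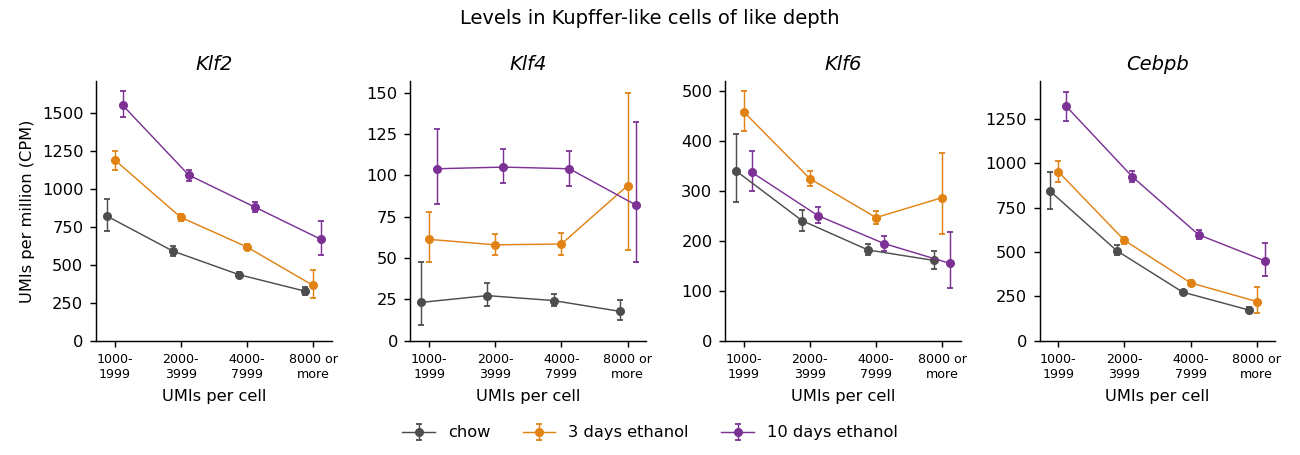
Levels of Klf2, Klf4, Klf6 and Cebpb (CPM) in Kupffer-like cells grouped by UMIs per cell, 1 line per library with 95% Poisson intervals. On the chow line Klf2, Klf6 and Cebpb are lower in deeper cells, and the 10-day line of Klf2, Klf4 and Cebpb lies above the chow line in 4 of 4 bins.

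Kupffer-like cells formed 6 clusters whose shares differed between libraries. Cluster 0, of shallow cells with a median of 2077.5 UMIs and led by the haem-degrading enzyme gene Hmox1 among others, held 20.1% of Kupffer-like cells on chow, 32.1% at 3 days and 48.9% at 10 days. Cluster 3, the deepest with 5701 UMIs, held 42.9%, 17.8% and 5.91%. Cluster 4, led by Ltc4s, Nr4a1 and Rhob, held 3.09%, 5.92% and 29.4%, and cluster 6, led by proliferation genes, 2.13%, 2.08% and 2.29%. Since each diet is 1 library, a cluster drawn mostly from 1 library may reflect that library.

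Klf2, Klf4 and Cebpb were above chow in 6 of 6 clusters at both times. Within clusters the ratio at 10 days ran from 1.19 to 2.40 for Klf2, 1.48 to 9.07 for Klf4 and 1.46 to 2.90 for Cebpb. The ratio of 9.07 (2.19 to 80.3) was that of cluster 1 and rested on 2 chow UMIs. In cluster 6, with 4 chow UMIs of Klf4, its intervals included 1 at both times, at 1.79 (0.5 to 7.96) and 3.18 (0.964 to 13.5). In cluster 4 Klf2 was already at 894 CPM (792 to 1010) on chow, against 1180 (1110 to 1260) at 3 days and 1060 (1030 to 1100) at 10 days. Klf4 in that cluster was at 90.0 CPM (59.8 to 130) on chow, 158 (131 to 189) at 3 days and 133 (121 to 146) at 10 days, so chow cells of cluster 4 had more Klf4 than chow cells of cluster 3, at 22 (18.5 to 25.9). Cebpb in cluster 3 was at 216 CPM (205 to 227) on chow and 226 (210 to 243) at 3 days, which overlap, and at 354 (315 to 396) at 10 days.

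Giving the 6 clusters equal weight lowered the ratios at 3 days to 2.21 for Klf4, 1.46 for Klf2, 1.37 for Klf6 and 1.31 for Cebpb, and Klf4 alone passed the limit. At 10 days they were 2.82 for Klf4, 1.75 for Cebpb and 1.66 for Klf2. Between 3 and 10 days 0 members passed under equal weights, with Cebpb at 1.33 and Klf4 at 1.28. Klf6 was above chow at 3 days and below 3 days at 10 days in 6 of 6 clusters, and Cebpa was lower at 10 than at 3 days in 5 of 6.

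**Figure D3:**
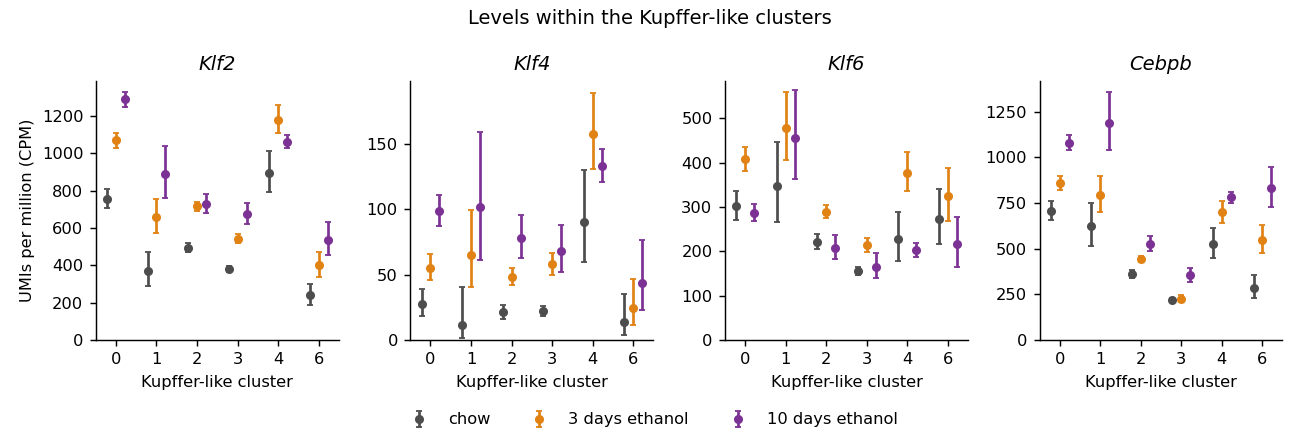
Levels of Klf2, Klf4, Klf6 and Cebpb (CPM) by Kupffer-like cluster and library with 95% Poisson intervals, for clusters numbered by the clustering. Klf2, Klf4 and Cebpb are lowest on chow in every cluster drawn, and Klf6 is highest at 3 days in every cluster drawn. These are orders of the points, and some intervals overlap.

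Endothelial-like cells gave a different picture of Klf2. They were at 644 CPM (519 to 789) on chow, 523 (443 to 614) at 3 days and 640 (537 to 758) at 10 days, from 92, 151 and 135 UMIs, and the 3 intervals overlapped. On chow the endothelial level was 1.41 (1.13 to 1.73) times that of Kupffer-like cells, at 3 days 0.694 (0.587 to 0.815) times and at 10 days 0.619 (0.518 to 0.733) times. By pooled CPM the order of the classes in Klf2 was endothelial, Kupffer, lymphoid on chow and Kupffer, endothelial, lymphoid in both ethanol libraries. The chow order depended on the depth compared. Thinned to 1000 UMIs, 37.2% (23.0 to 53.3) of endothelial-like and 36.3% of Kupffer-like chow cells held a Klf2 UMI. At 2000 UMIs the shares were 67.6% of 37 endothelial-like cells and 54.9% of Kupffer-like cells. Chow Kupffer-like cells of 1000 to under 2000 UMIs were at 821 CPM (722 to 930), and those of 2000 to under 4000 at 590 (559 to 622). The chow endothelial-like cells had a median of 2730 UMIs.

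Klf4 in endothelial-like cells was at 63.0 CPM (28.8 to 120), 101 (67.3 to 144) and 114 (72.9 to 169), from 9, 29 and 24 UMIs. Endothelial Klf4 was 2.65 (1.2 to 5.11) times the Kupffer level on chow and 1.09 (0.697 to 1.64) times at 10 days, where the 2 classes did not differ beyond counting error. Klf9 was at 56.0 CPM (24.2 to 110), 90.1 (58.9 to 132) and 85.4 (50.6 to 135) in this class, at 1.9 (0.813 to 3.78), 3.58 (2.3 to 5.35) and 2.22 (1.3 to 3.56) times the Kupffer level, so on chow the classes overlapped. Klf13 was at 203 CPM (136 to 291), 104 (70.2 to 148) and 166 (116 to 231). Its 3-day ratio to chow was 0.513 (0.297 to 0.885), opposite in direction to 1.18 (1.11 to 1.27) in Kupffer-like cells, and rested on 30 and 29 UMIs. Klf6 was at 140, 159 and 114 CPM with overlapping intervals.

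Kupffer RNA was present in the other classes. For Clec4f, Vsig4, Cd5l and Timd4, markers that endothelium and lymphocytes lack, the endothelial-like level was 0.141 to 0.251 times the Kupffer level over the 3 libraries, and the lymphoid-like level 0.0565 to 0.145 times. Endothelial Cebpb was at 84.0 CPM (43.4 to 147), 159 (117 to 213) and 171 (120 to 236), which is 0.264, 0.324 and 0.210 times the Kupffer level, with intervals that overlapped the marker range in 3 of 3 libraries. Its ratio to chow at 10 days of 2.03 (1.03 to 4.29) is thus beside a Kupffer level 2.56 times chow, and the part of stray Kupffer RNA in it was not tested. Cebpa overlapped the marker range on chow and at 10 days and was above it at 3 days. Klf2, Klf4, Klf6, Klf9 and Klf13 were above it in endothelial-like cells in every library.

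Lymphoid-like cells held Klf2 at 216 CPM (180 to 258), 190 (144 to 246) and 210 (169 to 258), with overlapping intervals. At the highest marker ratio, stray Kupffer RNA alone would give 66.3, 107 and 89.5 CPM of Klf2 there, so the level of the lymphoid cells' own RNA across the diets is not known. The sum also joined unlike cells. B-like cells had 591 CPM (458 to 751) on chow, 1170 (784 to 1680) at 3 days and 1100 (698 to 1650) at 10 days, and T and NK-like cells 122 (91.9 to 159), 104 (69.3 to 149) and 164 (127 to 208). The chow interval of the B-like cells lay below that at 3 days and overlapped that at 10 days. Only 20, 9 and 12 cells stand behind these levels, from 67, 29 and 23 UMIs, and their makeup differed: Jchain, an antibody-secreting cell gene, was at 3590 CPM in lymphoid-like cells on chow and at 0 in both ethanol libraries.

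Klf6 at 113, 138 and 107 CPM and Klf13 at 117, 108 and 126 CPM were also above the marker range in lymphoid-like cells and overlapped across the diets. Klf4 had 3, 3 and 2 UMIs there, Klf9 7, 0 and 1, and Cebpa 7, 4 and 2. Cebpb in lymphoid-like cells was at 44.3, 62.3 and 55.9 CPM, and its ratio to Kupffer-like cells overlapped the range of the markers in 3 of 3 libraries, as did Cebpa and Klf4. Conventional dendritic-like cells, of which there were 66, 57 and 49, had Klf2 at 332 (286 to 383), 355 (297 to 421) and 723 CPM (621 to 835) and Cebpb at 160 (128 to 196), 183 (142 to 232) and 377 (305 to 461), both highest at 10 days. Cebpb there was 0.502, 0.372 and 0.463 times the Kupffer level. Kupffer markers in this cluster had a median of 0.345 times their level over all kept cells, against 0.251 in the endothelial-like cluster. The part of stray Kupffer RNA in the dendritic-like levels was not tested. Thinned to 1000 UMIs, 30.3% (19.6 to 42.9), 29.8% (18.4 to 43.4) and 46.9% (32.5 to 61.7) of dendritic-like cells held a Klf2 UMI, with overlapping intervals. For Cebpb the shares were 19.7%, 19.3% and 20.4% at 1000 UMIs and 25%, 27.3% and 45.7% at 2000 UMIs, so the order of the Cebpb shares depended on the depth chosen.

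**Figure D4:**
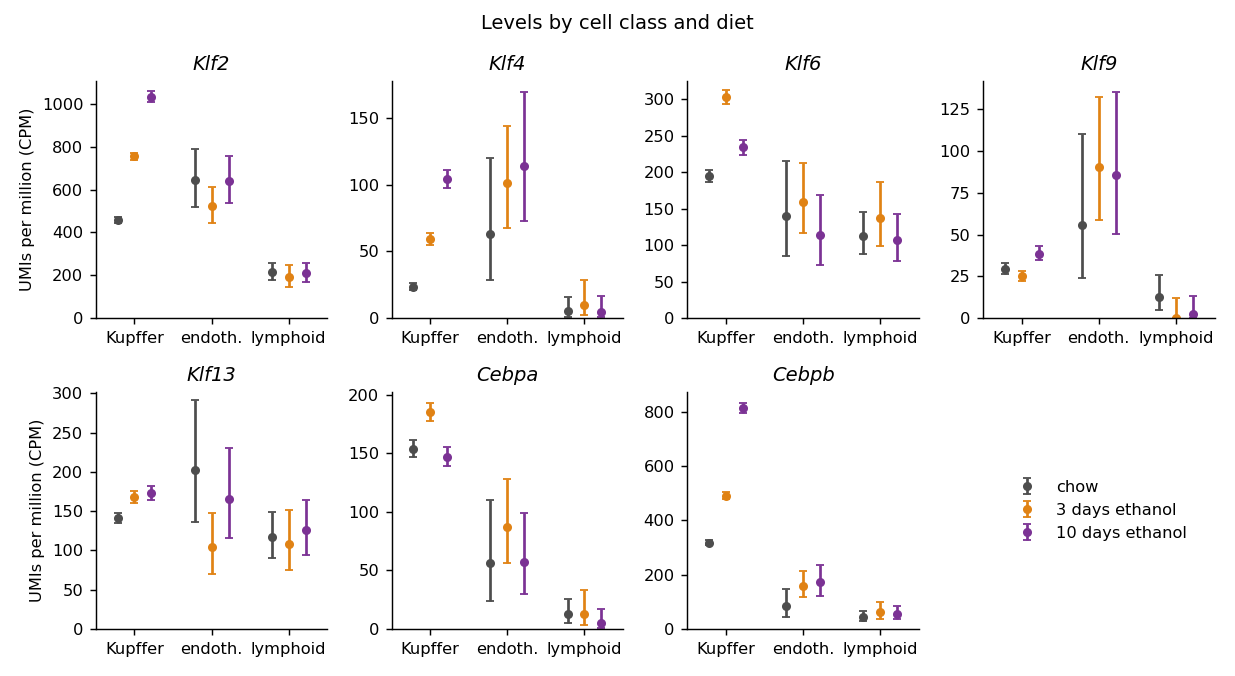
Levels (CPM) of the 7 genes in Kupffer-like, endothelial-like and lymphoid-like cells, 1 point per library with its 95% Poisson interval. The Klf2 points step up over the libraries in Kupffer-like cells and overlap in the other classes, and both C/EBP genes are lowest in lymphoid-like cells.

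Free RNA, read from barcodes of 1 to 100 UMIs, had the same order of libraries as the Kupffer-like cells for Klf2, Klf4, Klf6 and Cebpb. It held Klf2 at 462, 671 and 895 CPM, Klf4 at 18.3, 44.0 and 66.8, and Cebpb at 352, 519 and 876. Cebpb in free RNA was above its Kupffer-like level in all 3 libraries. Klf4, Klf6, Klf9, Klf13 and Cebpa were below theirs in all 3 libraries. Klf6 was at 163, 237 and 188 CPM in free RNA and Klf13 at 125, 124 and 139. Klf9 was at 11.3, 11.5 and 17.8 CPM and Cebpa at 92.5, 123 and 97.8. The part of free RNA in the Kupffer-like differences was not tested. The median mitochondrial share of Kupffer-like cells was 5.24%, 5.19% and 6.44%, highest at 10 days, and its part was not tested either.

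Of the other KLF genes 5 of 12 were measured in Kupffer-like cells, and 2 were higher at 3 days and 3 at 10 days, with 0 lower. The shares of all measured genes that were higher were 3.37% and 4.02%. Klf10, a gene induced early by TGF-beta, was at 71.1 CPM on chow, 115 at 3 days and 141 at 10 days. Its close relative Klf11 was at 7.74, 20.4 and 17.5 CPM, with ratios of 2.64 (2.06 to 3.41) and 2.26 (1.73 to 2.97), and Klf16 was at 8.87, 12.5 and 15.8 CPM. Klf11 and Klf16 were under 10 CPM on chow and met the filter through the ethanol libraries. Klf3 at 158, 184 and 219 CPM and Klf7 at 110, 109 and 152 CPM were under the limit. Their median log2 ratio was 0.45 and 0.77 over chow. Among other C/EBP genes 2 of 3 were measured. Ddit3, which encodes the stress-induced partner CHOP, was at 27.7, 49.5 and 38.2 CPM and higher at 3 days by 1.79 (1.56 to 2.06), and Cebpg was at 154, 187 and 180 CPM, under the limit.

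Genes that act upstream were also read in Kupffer-like cells only. Of all measured genes there, 3.37% were higher than chow at 3 days and 4.02% at 10 days. Of the ERK5 and MEF2 arm 4 of 5 were measured and 0 passed the limit in any comparison. Mapk7, which encodes ERK5, was at 22.1, 24.7 and 30.5 CPM, Mef2a at 329, 324 and 413, Mef2d at 37.0, 44.7 and 48.1, and Map2k5, which encodes the ERK5 kinase MEK5, at 10.6, 12.7 and 11.4. Of the C/EBP inducers and regulators 7 of 9 were measured and 0 passed. Trib1, which targets C/EBP-alpha protein for degradation, was nearest at 59.7, 87.3 and 88.4 CPM, and Nr3c1, the glucocorticoid receptor, was lowest in ratio at 148, 149 and 151 CPM. Crem, a cyclic AMP-responsive factor, was at 12, 12.2 and 15.1 CPM, and the interleukin-6 receptor chain Il6st at 36.0, 47.5 and 42.7.

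Genes known as targets were mixed in Kupffer-like cells, beside the same 3.37% and 4.02% of all measured genes that were higher than chow. Of 3 measured KLF2 targets 0 were past the limit at 3 days and 2 were higher at 10 days. Thbd, the anticoagulant receptor thrombomodulin, was at 7.65, 8.41 and 19.8 CPM, and the water channel Aqp1 at 11.7, 11.5 and 20.9 CPM. Thbd was under 10 CPM on chow and at 3 days and met the filter only through its 10-day level. Its call is therefore not independent of the filter. The integrin gene Itgb7, at 27.7, 30.7 and 36.1 CPM, stayed under the limit. Aqp1 is also among the leading genes of the endothelial-like cluster, at 3560, 3500 and 4020 CPM there, and the endothelial marker list, 18 of 18 genes seen, summed to 967, 998 and 1160 CPM in Kupffer-like cells with 0 genes at 0. Most of that sum was Cdh5, at 640, 680 and 813 CPM there and 777, 912 and 887 in endothelial-like cells, while Kdr was at 5.3, 5.64 and 8.47 CPM and Clec4g at 10.4, 6.98 and 9.28. The part of stray endothelial RNA in these levels was not tested. Mrc1, the mannose receptor and the one measured gene of 5 on the KLF4 list, was at 884, 1350 and 1420 CPM and higher at both times, at 1.52 (1.49 to 1.56) and 1.61 (1.57 to 1.65). For C/EBP targets 7 of 13 were measured, and their median log2 ratio was -0.13 at 3 days and -0.11 at 10 days. Il6 was higher, at 8.17, 13.9 and 18.9 CPM, but was under 10 CPM on chow and met the filter through the ethanol libraries. The lysozyme gene Lyz2 was lower at 10 days, at 4560, 3100 and 2790 CPM, with a ratio of 0.613 (0.604 to 0.623). Il1b, the inflammatory cytokine gene, was at 300 CPM on chow, 367 at 3 days and 263 at 10 days. Its ratios to chow of 1.22 and 0.878, and of 0.717 from 3 to 10 days, did not pass the limit.

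Glucocorticoid and immediate-early genes, which also respond to handling, differed between the libraries in Kupffer-like cells as well. Of 7 measured glucocorticoid targets 4 were higher at 3 days (Dusp1, Mt1, Sult1a1 and Tsc22d3), and at 10 days 3 were higher and 1, Fkbp5, lower. The 3 included Per1, at 7.22, 9.85 and 13.7 CPM, which met the 10 CPM filter only through its 10-day level. Tsc22d3, the leucine-zipper gene GILZ, was at 93.7, 175 and 187 CPM, and the receptor co-chaperone gene Fkbp5 at 41.7, 56.5 and 27.7. Dusp1 was at 275, 591 and 612 CPM, Sult1a1 at 55.7, 142 and 52.4, and Sgk1 at 189, 169 and 236. Of 15 measured immediate-early and dissociation genes 7 were higher at 3 days and 5 at 10 days, with 0 lower. Over all measured genes 3.37% were higher and 1.28% lower at 3 days, and 4.02% and 2.41% at 10 days. Fos was at 160, 318 and 190 CPM and Egr1 at 18.6, 52.4 and 27.7, both highest at 3 days, the library in which Klf6 was highest, whereas Nr4a1 was at 30.4, 52.6 and 89.3. Atf3 at 18.3, 16.9 and 23.4 CPM and Ier3 at 34.0, 37.3 and 36.6 were the lowest in ratio to chow at 3 and at 10 days.

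Thinned cells were split by whether they held a Fos UMI, which 14.4%, 24.3% and 16.9% of Kupffer-like cells did. Among cells without one, Klf2 was seen in 35.7% (33.6 to 37.8), 49.0% (47.1 to 50.8) and 60.2% (58.1 to 62.3), and Cebpb in 30.6% (28.6 to 32.7), 39.9% (38.0 to 41.8) and 56.3% (54.2 to 58.4). Klf4 in those cells was seen in 2.49%, 4.77% and 9.04%. At this depth many cells that express Fos hold no Fos UMI, so the cells without one are not free of Fos. At 3 days Klf2 and Klf4 were seen more often in cells with a Fos UMI, at 57.6% (54.2 to 60.9) and 8.35% (6.60 to 10.4). For Klf6 the 3-day shares were 27.8% with and 27.5% without Fos. The part of the dissociation response in the levels was not tested.

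Cells with UMIs of 2 members at equal depth were counted for 21 pairs in each library, and the count over the product of the single shares ran from 0.798 to 1.89. The counting interval lay above 1 in 5 of these 63 values and below 1 in 0. Klf2 and Klf4 were seen together 1.04 (0.676 to 1.54) times as often as that product on chow, 1.27 (1.07 to 1.51) times at 3 days and 1.13 (0.969 to 1.31) times at 10 days. Klf2 and Cebpb were seen together 1.13 (1.01 to 1.27) times as often as the product on chow and 1.09 (1.01 to 1.17) times at 3 days. The others were Klf4 with Klf13 on chow, 1.89 (1.08 to 3.07) from 16 cells, and Klf4 with Klf9 at 10 days, 1.88 (1.11 to 2.97) from 18 cells. For Cebpa and Cebpb the figures were 1.15 (0.949 to 1.38), 0.925 (0.807 to 1.06) and 1.05 (0.910 to 1.21).

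Likeness was measured over 11 sums of Kupffer-like cells by cluster and library, for 2963 genes of at least 50 CPM, as Pearson's r of log2 CPM with 1 CPM added. The sums share libraries, free RNA and depth, so r is a description. Klf2 was most like Bmpr2 (r of 0.972), Nabp1 (0.964) and Cd83 (0.959), and Klf4 most like Metrnl (0.973), Klf10 (0.923) and Cpt1a (0.922). Klf6 was close to Zdhhc9 (0.973) and Fcho2 (0.962), Klf9 to Lilr4b (0.937), Mapre1 (0.903) and Msn (0.897), and Klf13 to Ctsf (0.902), Rfwd2 (0.899) and Stard5 (0.886). Cebpa was nearest to Ankrd11 (0.933), Sult1a1 (0.928) and Siglec1 (0.915), and Cebpb to Dapk1 (0.989), Lpl (0.988) and Entpd1 (0.982).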

How the data were processed

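The deposited matrices hold raw UMI counts per gene and barcode, made by the authors with Cell Ranger 2.2.0 on GRCm38 (mm10), per the submitters' processing notes. No annotation release was given in the sources used here. Members, lists and classes were chosen with earlier results of these data known. Named genes were the members, the genes of highest and lowest log2 ratio in fixed lists, other KLF and C/EBP genes, and the 3 likest genes, of which 1 is not reported here. Further genes named within the lists were chosen after their values were seen.

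Barcodes were filtered as stated, and 2000 variable genes without KLF and C/EBP genes gave 30 principal components, 15 neighbours and Leiden clusters at resolution 0.6 (scanpy 1.11.5, igraph 0.11.9, scikit-learn 1.9.0). Clusters were named from marker lists when at least 3 markers were among 25 leading genes. Clusters with markers of T cells, neutrophils or erythroid cells on a Kupffer background stayed unnamed (314, 37 and 35 cells) and out of the class sums. The automatic threshold of the doublet caller Scrublet marked 0 cells in each library and had thus not worked, so none were removed. The doublet scores used in a setting below come from the same run, so that setting cannot show how doublets bear on the counts. UMIs were summed per class and library (Kupffer-like 11500440, 11884094 and 8623127 UMIs). CPM and log2 ratios were computed here from these sums. Intervals are exact at 95% (scipy 1.17.1). The ratio step was tested on simulated counts. Of 28692 gene IDs 28339 were found in GENCODE vM21, and the 7 members had promoters in the RefSeq table.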

Additional observations from a re-analysis of the deposited data

Results flagged for a closer look

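Klf13 in endothelial-like cells had a 3-day ratio to chow of 0.513 (0.297 to 0.885), while in Kupffer-like cells of the same libraries the ratio was 1.18 (1.11 to 1.27). It drew attention because the 2 classes lay on opposite sides of 1 with both counting intervals excluding it. The difference between the classes was not tested, and 1 library per diet stands behind each value. The ratio of 0.513 rests on 30 UMIs in 109 cells and 29 UMIs in 43 cells, and at 10 days the endothelial-like ratio was 0.818 (0.486 to 1.39). Of 3445 measured genes in endothelial-like cells, 4.27% had a smaller 3-day log2 ratio than Klf13. Thinned to 1000 UMIs, 18.6% (8.39 to 33.4) of endothelial-like cells on chow and 9.17% (4.49 to 16.2) at 3 days held a Klf13 UMI. These intervals overlapped. At 2000 UMIs the shares were 27.0% of 37 cells and 24.6% of 69 cells, so the size of the difference depended on the depth chosen.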

How the results depend on the processing

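No paired analysis was possible because each diet was 1 library, and no test was run. The number of members past the limit was unchanged, or within 1.5 times, for a mitochondrial limit of 5%, a minimum of 2000 UMIs, removal of the 4% highest doublet scores, median-of-ratios scaling, thinning, equal weight per cell, all barcodes, Leiden resolution 1.2, no low-count filter, a 50 CPM minimum, and leaving out the 10 richest cells or the proliferating cluster. The 4 members higher at 3 days became 1 with equal weight per cluster, 1 with equal weight per depth bin and 1 at a fold limit of 2. The 3 members higher at 10 than at 3 days became 0 with equal clusters, 1 with equal depth bins and 0 at a fold limit of 2. The 0 members lower at 10 than at 3 days became 2 (Klf6 and Cebpa) at a fold limit of 5 to 4. The 3 members higher at 10 days than on chow stayed 3 in every setting run except the fold limit of 5 to 4, which added Klf9 (4). Over all 7508 genes, the 96 lower at 3 days than on chow became 223 with equal clusters and 252 with equal depth bins, the 302 higher and 181 lower at 10 days became 187 and 343 with median-of-ratios scaling, the 302 became 192 with equal clusters, and the 180 higher and 147 lower from 3 to 10 days became 341 and 321 with equal depth bins. A mitochondrial limit of 5% gave 395 higher at 3 days, where 253 were before, and 288 lower from 3 to 10 days, and thinning gave 206, 289 and 248 lower in the 3 comparisons. Other fold limits and low-count filters change these counts by construction: a fold limit of 2 left 30 higher and 17 lower at 3 days and 50 and 22 at 10 days, and no filter gave 575 and 399, and 663 and 523. The depth-bin weighting and the removal of the proliferating cluster were chosen after seeing the data. Over these settings the log2 ratio of Cebpa at 10 days over chow ran from -0.17 to 0.07 and that of Klf13 between the ethanol libraries from -0.05 to 0.07, and the other 19 kept their sign. Leaving out the 10 cells richest in a gene lowers its level by construction. It moved 41 of 42 endothelial-like and lymphoid-like levels beyond their intervals, in classes of 43 to 165 cells per library. On chow the 10 richest endothelial-like cells held 60.9% of the Klf2 UMIs of that class.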
